A study of Mus musculus with 6 samples.

Results

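Matrix metalloproteinases (MMPs), ADAMTS proteases and the tissue inhibitors of metalloproteinases (TIMPs) were followed in the lumbar cord of SV129 mouse embryos at E15.5. Total RNA from 3 wild-type cords and 3 knockout cords of genotype TNC -/- (tenascin-C gene, allele not given in the sources used here) was measured on 6 whole-transcript arrays, 1 per sample. Samples are called biological replicates in the labels. The sources used here do not say whether each came from 1 embryo or a pool, or from which litter. Within these families the rule took every row whose single annotated symbol is Mmp, Adamts or Timp with its number. This gave 68 rows for 44 of the 19938 genes tested, namely 22 MMPs, 18 ADAMTS proteases and 4 TIMPs, with the row of highest mean standing for each gene.

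These enzymes are zinc proteases that cut the proteins between cells. MMPs are made as inactive precursors and are either secreted or held at the cell membrane. ADAMTS proteases are secreted and carry thrombospondin repeats, and several of them cut the large chondroitin sulfate proteoglycans of nervous tissue. TIMPs bind the active site of MMPs, and Timp3 also that of some ADAM and ADAMTS enzymes. Tenascin-C, the product of Tnc, is a matrix glycoprotein that some MMPs can cut.

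Values are deposited log2 signals, and differences are knockout minus wild type on that scale. Values of a group are listed in the order of replicates 1, 2 and 3, and the range in parentheses after a difference is its 95% interval from limma. A level can be compared between arrays for 1 gene but not between genes, because each gene has its own probes. As a guide to background, the 95th percentile of the mean signal of 1192 olfactory and vomeronasal receptor genes was 6.13, which 73.6% of all genes exceeded. Above the guide lay 33 of the 44 genes, all 18 ADAMTS proteases, all 4 TIMPs and 11 of the 22 MMPs. Closest to it were Timp1 at 6.19 and Mmp21 at 6.22 on the upper side and Mmp7 at 6.00 and Mmp10 at 5.94 on the lower side. In such whole-tissue RNA, fewer cells of a type and less RNA per cell cannot be told apart.

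The 11 MMPs under the guide were Mmp19 and 10 genes that form an unbroken run on chromosome 9, with no other protein-coding gene between them in the RefSeq table of assembly GRCm38.p6. In order along the chromosome the run holds Mmp13, Mmp12, Mmp1b, Mmp3, Mmp1a, Mmp10, Mmp8, Mmp27, Mmp20 and Mmp7. It contains the collagenases, the stromelysins Mmp3 and Mmp10, macrophage elastase (Mmp12), the enamel protease Mmp20 and matrilysin (Mmp7). Textbook accounts of many of these genes describe promoters with a TATA box and a site for AP-1, the Fos and Jun factor that responds to stimulation. RefSeq promoter windows of 300 bases, from 250 before to 50 after an annotated start (GRCm38.p6), were matched for 30 of the 44 genes. They were not matched for Mmp2, Mmp9, Mmp16, Mmp17, Mmp19, Adamts4, Adamts5, Adamts6, Adamts7, Adamts8, Adamts10, Adamts15, Adamts16 and Adamts19.

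Stretches from 100 bases before to 20 after the start are shown for 4 genes of the run and for Mmp14, Timp2, Timp3 and Timp4, which lay above the guide. They are written 5′ to 3′ in lower case. Capitals mark matches on either strand to any of 3 motifs. The first, spelled TGANTCA with N for any base, stands for the AP-1 site. The second, spelled TATAAA, stands for the start-site element known as the TATA box. The third, known as the GC box and bound by Sp1 and its relatives, is spelled GGGCGG here. Neighbouring matches of 1 motif can run together. The stretches lie at chr9:7464041-7464160 (plus strand), chr9:7445722-7445841 (plus strand), chr9:7502242-7502361 (plus strand) and chr9:7272414-7272533 (plus strand) for the run. For the others they lie at chr14:54431498-54431617 (plus strand), chr11:118355392-118355511 (minus strand), chr10:86300312-86300431 (plus strand) and chr6:115252186-115252305 (minus strand).
Mmp1a: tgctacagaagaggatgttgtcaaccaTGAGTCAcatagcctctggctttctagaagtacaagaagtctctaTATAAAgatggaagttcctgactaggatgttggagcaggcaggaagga
Mmp3: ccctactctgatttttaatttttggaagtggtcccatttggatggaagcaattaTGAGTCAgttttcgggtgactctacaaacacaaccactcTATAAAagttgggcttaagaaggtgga
Mmp10: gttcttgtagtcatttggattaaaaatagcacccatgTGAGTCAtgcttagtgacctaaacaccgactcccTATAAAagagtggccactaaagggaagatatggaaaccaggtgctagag
Mmp13: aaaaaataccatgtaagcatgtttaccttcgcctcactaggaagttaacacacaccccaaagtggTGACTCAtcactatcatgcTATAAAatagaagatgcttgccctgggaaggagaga
Mmp14: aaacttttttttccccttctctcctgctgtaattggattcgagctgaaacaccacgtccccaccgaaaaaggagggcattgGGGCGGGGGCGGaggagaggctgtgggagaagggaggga
Timp2: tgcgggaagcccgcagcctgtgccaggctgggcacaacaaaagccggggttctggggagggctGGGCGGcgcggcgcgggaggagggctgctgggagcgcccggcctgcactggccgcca
Timp3: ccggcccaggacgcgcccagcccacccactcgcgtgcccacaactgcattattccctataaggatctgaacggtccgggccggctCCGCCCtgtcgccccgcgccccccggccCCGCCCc
Timp4: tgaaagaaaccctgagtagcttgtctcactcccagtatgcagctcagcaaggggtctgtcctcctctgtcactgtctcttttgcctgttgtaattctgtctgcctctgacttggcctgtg

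In the 4 stretches of the run, the AP-1 match precedes the TATA match. Those of Mmp14, Timp2 and Timp3 hold GC boxes, and that of Timp4 holds none of the 3 motifs. Over the run, 8 of 10 genes had both in 1 window (Mmp1a, Mmp1b, Mmp3, Mmp7, Mmp10, Mmp12, Mmp13 and Mmp20), with 19 to 48 bases from the first base of the AP-1 match to that of the next TATA match downstream. Mmp7 had a second TATA match upstream of its AP-1 match, and the TATA match of Mmp12 lay after the annotated start. Mmp8 had a TATA match only and Mmp27 neither. Of the 20 genes above the guide with a window, 0 had an AP-1 match, 2 had a TATA match (Mmp21 and Adamts1) and 16 had a GC box, which 0 of the 10 run genes had. Among all 32851 promoter windows the AP-1 letters occurred in 7.81%, the TATA letters in 13.6%, both in 1.54% and the GC box in 35.7%. These shares are per window, whereas a gene was counted if any of its windows had the match. Genes of the run are neighbours of 1 family, so their windows are not independent. The median GC content of a gene's windows was 37.7% to 46.7% in the run and 53.3% to 80.0% among the genes above the guide. A match describes letters only, and annotated starts can lie some bases from the true ones. All 13 genes of a list of Fos, Jun, Ets and related regulators lay above the guide, as did 73.6% of all genes. Of the 13, 5 were higher and 8 lower in knockout, with 9 higher when wild-type replicate 3 was omitted and 8 when knockout replicate 1 was.

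**Figure D1:**
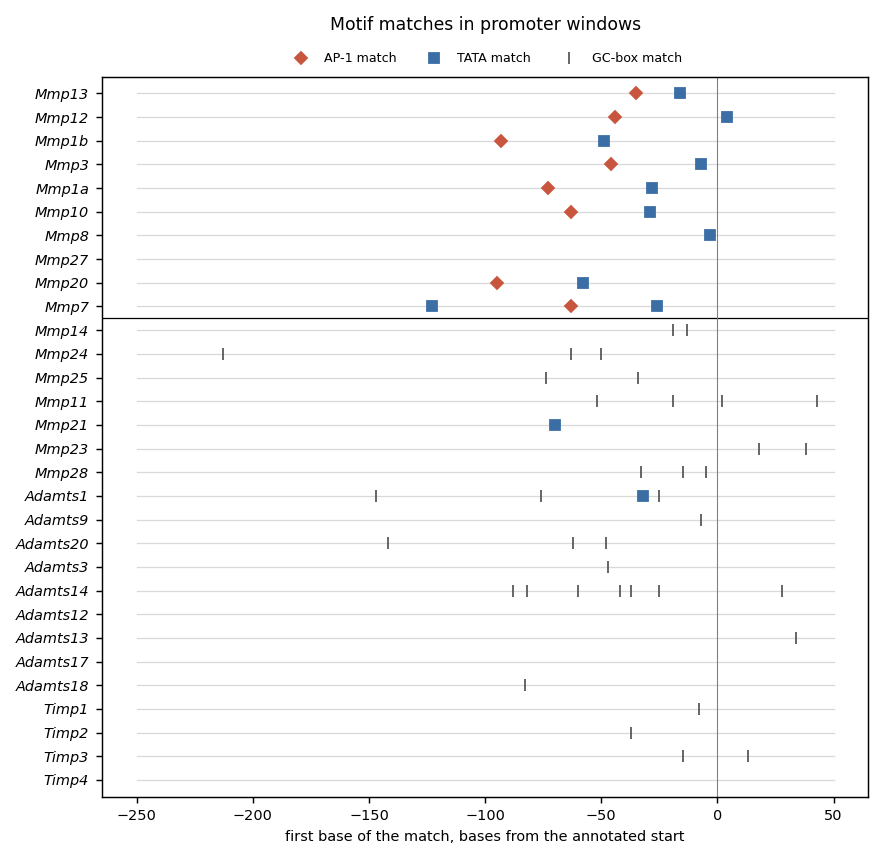
Position of the first base of each motif match (horizontal axis, bases from the annotated start) in RefSeq promoter windows of the 10 genes of the chromosome 9 run (above the line) and 20 genes above the background guide (below the line). Windows of 1 gene share a row. AP-1 matches, drawn as diamonds, occur in 8 genes of the run and in 0 of the other 20, while GC boxes, drawn as ticks, occur in 16 of the other 20.

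Libraries differed in ways that genotype does not cover. Xist was at least 11.60 in the 4 arrays without signal from Uty, Kdm5d and Eif2s3y, genes of the Y chromosome, which were all 3 wild-type arrays and knockout replicate 2. It was at most 5.44 in knockout replicates 1 and 3, so the groups differ in sex as well as in Tnc. One principal component held 50.2% of the variance of genes above the guide and placed wild-type replicates 1 and 3 at its ends. In replicate order its scores were -16.3, -4.22 and 18 in wild type and -6.53, 0.659 and 8.48 in knockout. They rose with replicate number in both groups. Tnc read 10.72, 10.22 and 10.02 in wild type and 9.64, 9.76 and 9.47 in knockout, a difference of -0.69, with p = 0.1 by an exact permutation of the arrays (two-sided), the lowest value 3 against 3 can reach, and an adjusted p of 1 in limma. Which part of Tnc its probes cover was not analysed here. All 10 neuronal, 8 motor neuron and 6 lumbar Hox markers lay above the guide, as did 7 of 9 skeletal muscle and 4 of 8 cartilage and bone markers. Over all genes 73.6% lay above it. Sox9, 1 of the 4 cartilage and bone markers above the guide, was also listed as a marker of radial glia.

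No member passed the test of knockout against wild type. In limma with Benjamini-Hochberg adjustment over all genes, 0 of 44 members and 0 of 19938 genes (0%) had an adjusted p under 0.05. An unadjusted p under 0.05 was found for 2 of 44 members (4.55%), Timp4 and Adamts16, against 1.70% of all genes. Among the 33 members above the guide, 20 stood higher and 13 lower, with a median difference of 0.02, while over all 14684 genes above the guide 7147 stood higher and the median was -0.00263. The 3 knockout values lay wholly above the 3 wild-type values for Timp2, Timp4 and Adamts16, or 9.09% of the 33, and wholly below for none. Over all genes above the guide, 3.65% were separated in the higher direction and 5.96% in either. Including members under the guide, 5 of 44 (11.4%) were separated, against 5.82% of all genes.

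The largest difference of a member above the guide was 0.26 (Timp4), and 0 of the 33 reached 0.3, a size passed by 97 of all 14684 genes above the guide. Without wild-type replicate 1 Timp4 stood at 0.36. The largest was Mmp9 at 0.26 if wild-type replicate 3 was omitted, Mmp17 at 0.25 if knockout replicate 2 was, and Timp3 at 0.39 with embryo sex as a term. The outermost bounds of the 95% intervals of the 33 differences were -0.55 (Adamts4, the member that varied most) and 0.49 (Timp4). Intervals differed in width between genes, and that of Adamts10 ran from -0.18 to 0.14. The count of unadjusted p values under 0.05 ran from 0 to 4 with single arrays left out. It was 0 when wild-type replicate 2 or knockout replicate 1 or 3 was omitted, and 4 (Timp4, Adamts16, Mmp20 and Mmp27) when wild-type replicate 1 was. With wild-type replicate 3 omitted the 1 gene was Mmp9, and with knockout replicate 2 omitted it was Mmp17. Without knockout replicate 2, genotype and sex coincide and cannot be told apart. A fit with embryo sex as a term gave 1 gene, Timp3. In that fit the genotype difference rests on knockout replicate 2.

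**Figure D2:**
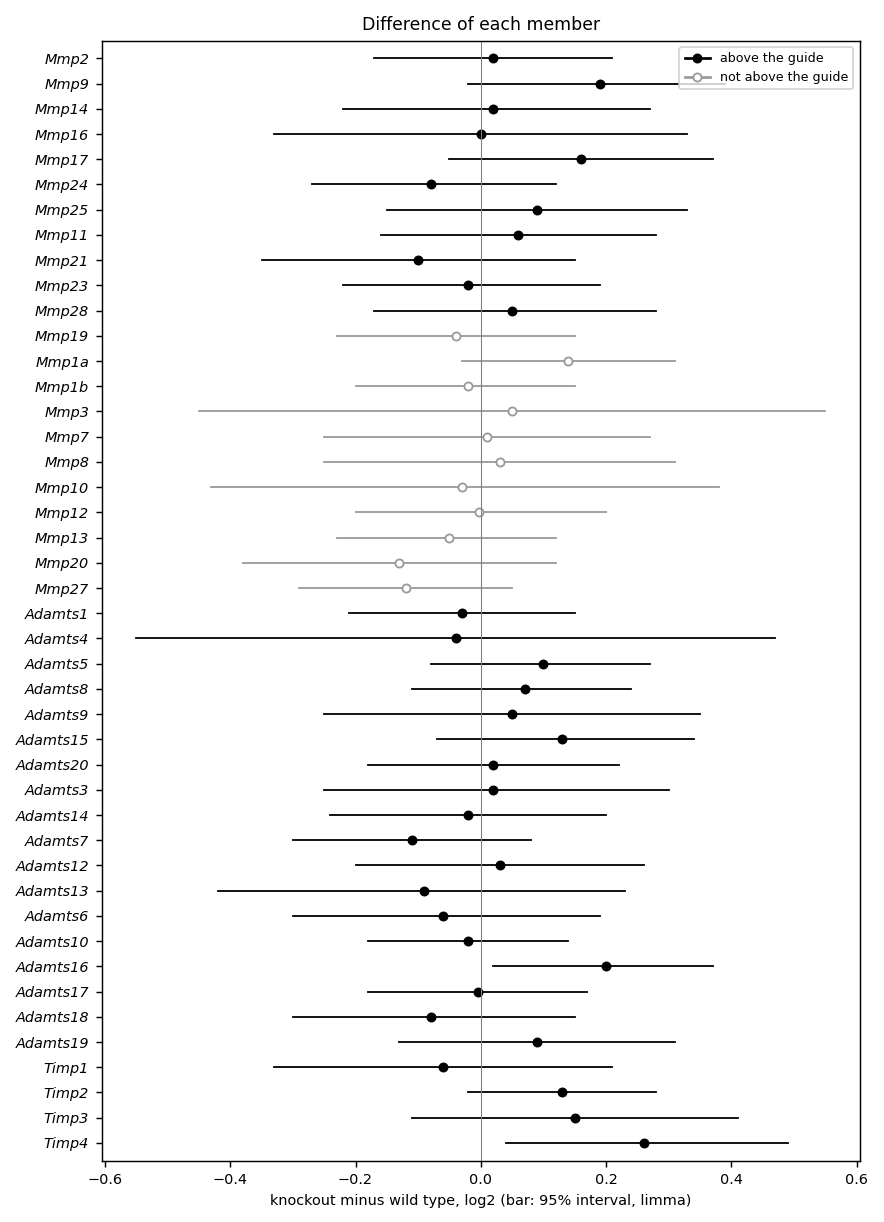
Knockout minus wild type (horizontal axis, log2) for all 44 genes, ordered by role, with the 95% interval from limma as a bar. Filled points are the 33 genes above the background guide, and the intervals of Timp4 and Adamts16 alone do not cross 0.

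Of the inhibitors, 3 of 4 stood higher in knockout, with a median difference of 0.14. Timp4, the member with the largest difference, read 9.78, 9.48 and 9.49 in wild type and 9.83, 9.89 and 9.83 in knockout. Its 3 knockout values lie together, and the nearest wild-type value is replicate 1. The difference was 0.26 with an interval of 0.04 to 0.49, which puts knockout at 120% of the wild-type signal, with an unadjusted p of 0.0267 and an adjusted p of 1 in limma. Timp2, which bridges the membrane enzyme Mmp14 and the precursor of Mmp2, read 10.76, 10.76 and 10.76 in wild type and 10.88, 10.92 and 10.89 in knockout. The groups did not overlap, and the wild-type arrays were alike to within 0.00396 (SD, n = 3). The difference was 0.13 (-0.02 to 0.28), and it stayed between 0.12 and 0.14 with each array left out.

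Timp3, which binds to the matrix and inhibits ADAM and ADAMTS enzymes as well, read 10.61, 10.54 and 10.72 in wild type and 10.68, 11.02 and 10.63 in knockout. Only knockout replicate 2 stood apart, and the other 5 arrays overlapped. The difference was 0.15 (-0.11 to 0.41), and without knockout replicate 2 it was 0.03. Timp1, an X-linked inhibitor of secreted MMPs close to the guide, read 6.15, 6.09 and 6.41 in wild type and 6.09, 6.34 and 6.04 in knockout. The groups overlapped, the difference was -0.06 (-0.33 to 0.21), and it was 0.04 without wild-type replicate 3. With the sex term, the differences of Timp1, Timp2, Timp3 and Timp4 were 0.13, 0.15, 0.39 and 0.30, all resting on knockout replicate 2.

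Markers of cell types that could carry TIMP RNA were measured beside it, and 0 of the markers named next had an adjusted p under 0.05. An unadjusted p under 0.05 was found for 4 of 10 endothelial, 1 of 10 pericyte and smooth muscle and 2 of 6 oligodendrocyte precursor markers. It was also found for 1 of 9 radial glia markers (Prom1, higher) and 1 of 12 meningeal and fibroblast markers (Lum, lower). Of 12 microglia and macrophage markers 1 had it (Aif1, lower and under the guide). The other lists named below had 0, and the share over all genes was 1.70%. Of 10 endothelial markers, all above the guide, 9 had a higher mean in knockout (9 or 10 with each array left out), and their summed linear signal ran from 4237 to 4732 in wild type and from 4664 to 5232 in knockout, where replicate 2 was highest. Of 10 pericyte and smooth muscle markers 8 had a higher mean (6 to 10), with Des under the guide and sums of 3638 to 4283 against 4196 to 4800, knockout replicate 2 again being highest. Both sums overlapped between the groups. All 6 oligodendrocyte precursor markers were above the guide with a higher mean, also with each array left out, and their sums of 2298 to 2541 and 2704 to 2899 did not overlap. Of 12 meningeal and fibroblast markers 3 had a higher mean (3 or 4), with Lum and Ogn under the guide and sums of 3314 to 3414 against 3306 to 3673. Pdgfra, which differed by 0.14, is in both this list and that of oligodendrocyte precursors. Over all genes above the guide 48.7% had a higher mean. So did 8 of 9 radial glia (3 to 9 with single arrays left out), 7 of 10 neuronal (6 to 10), 8 of 8 motor neuron (3 to 8) and 5 of 6 lumbar Hox markers (3 to 6). For radial glia, motor neurons and Hox genes the 3 came without wild-type replicate 1. Counts were 7 of 12 for microglia and macrophages (5 to 8), 3 of 9 for neutrophils and mast cells (1 to 9) and 4 of 9 for skeletal muscle (2 to 7). They were 4 of 8 for cartilage and bone (1 to 7) and 1 of 4 for blood (0 to 3). The part of any of these cell types in the TIMP values was not tested.

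**Figure D3:**
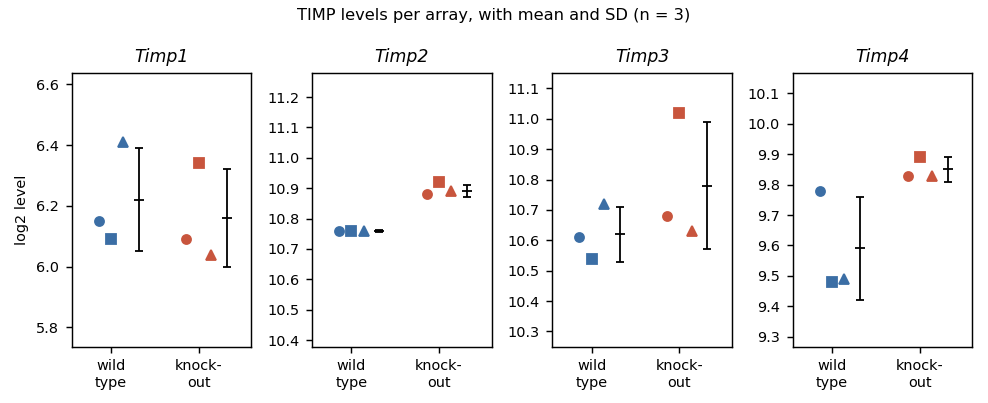
Log2 level (vertical axis, each panel spanning the same range) of Timp1, Timp2, Timp3 and Timp4 in the 3 wild-type and 3 knockout arrays, with mean and SD beside the points. Symbols mark replicates 1 (circle), 2 (square) and 3 (triangle). Knockout lies wholly above wild type for Timp2 and Timp4, and knockout replicate 2 stands alone for Timp3 at 11.02.

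Among the gelatinases, which cut denatured collagen and basement membrane, the 2 members both had overlapping groups. Mmp2 read 9.54, 9.47 and 9.63 in wild type and 9.45, 9.60 and 9.65 in knockout, a difference of 0.02 (-0.17 to 0.21). Mmp9, known in the cord as a gene of fast motor neurons, read 9.08, 9.0 and 9.27 in wild type and 9.32, 9.34 and 9.24 in knockout. Wild-type replicate 3 lay inside the knockout range and the other 2 wild-type arrays below it, with a difference of 0.19 (-0.02 to 0.39) and an unadjusted p of 0.0681 in limma. The difference ran from 0.13 to 0.26 with single arrays left out. All 8 motor neuron markers had a higher mean in knockout, 3 of 8 without wild-type replicate 1, against 48.7% of all genes above the guide. Their summed linear signals were 3172 to 4160 in wild type and 3810 to 4044 in knockout, and their part in the Mmp9 value was not tested.

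Membrane-type MMPs act at the cell surface, and 4 of 5 stood higher, 2 without knockout replicate 2 and 2 with the sex term. Mmp14, which activates the precursor of Mmp2, read 8.96, 9.23 and 9.35 in wild type and 9.20, 9.16 and 9.24 in knockout, a difference of 0.02 (-0.22 to 0.27). The lowest and highest values were both wild type. Set side by side, the differences in the Mmp14, Timp2 and Mmp2 system were 0.02, 0.13 and 0.02. Mmp16, a transmembrane enzyme encoded on chromosome 4 as Tnc is, read 10.78, 10.52 and 10.18 in wild type and 10.49, 10.57 and 10.44 in knockout. Its wild-type values span 0.60 log2 units with knockout in the middle, a difference of 0.00107 (-0.33 to 0.33) that moved to -0.15 without wild-type replicate 3 and 0.14 if replicate 1 was left out. Mmp24, a transmembrane enzyme of neurons, read 10.15, 10.07 and 10.25 in wild type and 9.98, 10.15 and 10.11 in knockout, a difference of -0.08 (-0.27 to 0.12).

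The other 2 members of this class are anchored by a lipid. Mmp17 read 8.71, 8.73 and 8.62 in wild type and 8.94, 8.67 and 8.93 in knockout, with knockout replicates 1 and 3 above and replicate 2 among the wild-type values. These 2 arrays are the ones with Y-chromosome signal, and the difference of 0.16 (-0.05 to 0.37) was 0.25 without knockout replicate 2 and -0.02 with the sex term. Mmp25 read 6.92, 6.95 and 7.10 in wild type and 7.04, 7.27 and 6.94 in knockout, where knockout replicate 2 was highest, a difference of 0.09 (-0.15 to 0.33) that was -0.01 without that array and 0.28 with the sex term.

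Other MMPs above the guide showed overlapping groups throughout. Mmp11, a secreted enzyme activated inside the cell by furin, read 8.78, 8.95 and 9.09 in wild type and 8.98, 8.94 and 9.08 in knockout, a difference of 0.06. Mmp28, known as epilysin, read 7.70, 7.57 and 7.86 in wild type and 7.74, 7.68 and 7.87 in knockout, a difference of 0.05. Mmp21 read 6.05, 6.30 and 6.45 in wild type and 6.08, 6.19 and 6.22 in knockout, a difference of -0.10. In all 3, wild-type replicate 3 was the highest of its group. Mmp23, the second member on chromosome 4, read 6.56, 6.57 and 6.78 in wild type and 6.68, 6.66 and 6.53 in knockout, a difference of -0.02. The sign turned for Mmp11 if wild-type replicate 1 was left out, for Mmp28 if it was replicate 2, and for Mmp23 without wild-type or knockout replicate 3.

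The 11 MMPs under the guide had means between 4.03 and 6.00, where transcript and background signal cannot be told apart. Of these, 4 were higher and 7 lower, and of the 10 in the run 4 were higher, between 1 (without wild-type replicate 1 or 2) and 7 (without wild-type replicate 3) in fits with 1 array omitted. Differences ran from -0.13 (Mmp20) to 0.14 (Mmp1a). Wild-type replicate 3 held the highest value for 8 of the 11. The groups were separated for 2 of the 11, while over all genes, under or above the guide, the share was 5.82%. Mmp1a, a collagenase, read 4.37, 4.34 and 4.33 in wild type and 4.56, 4.40 and 4.48 in knockout, and Mmp27 read 4.73, 4.86 and 4.91 in wild type and 4.70, 4.71 and 4.73 in knockout. The closest values of the groups for Mmp27 are equal to 2 decimals. Mmp3 had the widest spread of the run and read 4.90, 4.97 and 5.70 in wild type and 4.95, 5.38 and 5.37 in knockout. Markers of macrophages, a known source of Mmp12, were above the guide for 9 of 12 genes (Aif1, Ptprc and Mrc1 were not), and those of neutrophils, a known source of Mmp8, and mast cells for 3 of 9. Over all genes 73.6% were above it.

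ADAMTS proteases that cut hyalectans, the proteoglycans aggrecan, brevican, neurocan and versican, stood higher for 5 of 7 genes, with a median of 0.05. The count was 3 without knockout replicate 2 and 7 without knockout replicate 1 or wild-type replicate 3. Adamts15 read 7.54, 7.27 and 7.42 in wild type and 7.50, 7.61 and 7.51 in knockout, a difference of 0.13 (-0.07 to 0.34). Only wild-type replicate 1 reached the knockout range. Adamts5, a main aggrecanase, read 8.17, 8.14 and 8.04 in wild type and 8.15, 8.26 and 8.24 in knockout, a difference of 0.10 (-0.08 to 0.27). Adamts8, the neighbour of Adamts15 on chromosome 9, read 6.94, 6.90 and 7.06 in wild type and 6.99, 7.02 and 7.09 in knockout, a difference of 0.07. These 3 kept a positive sign with every single array left out, though their groups overlap.

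Adamts4, the other main aggrecanase, varied most of the 33 members. It read 6.65, 6.99 and 7.57 in wild type and 6.85, 6.96 and 7.28 in knockout. Both extremes are wild type, 0.92 log2 units apart, and the difference was -0.04 (-0.55 to 0.47), moving to 0.21 without wild-type replicate 3 and -0.25 if replicate 1 was left out. Adamts1, the neighbour of Adamts5 on chromosome 16, read 7.17, 7.25 and 7.34 in wild type and 7.14, 7.28 and 7.24 in knockout, a difference of -0.03. Adamts9 read 9.0, 8.87 and 9.14 in wild type and 8.77, 9.24 and 9.15 in knockout, a difference of 0.05 that was -0.04 without knockout replicate 2. Adamts20, needed for the spread of pigment cells in the skin, read 6.83, 7.03 and 7.01 in wild type and 6.88, 7.03 and 7.02 in knockout, a difference of 0.02. In Adamts1, Adamts9 and Adamts20 the groups overlapped.

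Their substrates were listed with the link proteins that hold them to hyaluronan. Of 8 such genes 7 stood higher, 4 without wild-type replicate 2, with a median of 0.04. Of the 8, 6 lay above the guide and 0 had an unadjusted p under 0.05. Brevican (Bcan), a hyalectan of brain and cord, read 10.01, 9.88 and 10.09 in wild type and 10.15, 10.23 and 10.15 in knockout. Knockout lay wholly above wild type, with a difference of 0.18 (-0.01 to 0.36) and an unadjusted p of 0.0561 in limma. Neurocan (Ncan) and versican (Vcan), also above the guide, differed by 0.01 (-0.18 to 0.20) and 0.03 (-0.40 to 0.46), with overlapping groups. Aggrecan (Acan) lay under the guide in each array and differed by 0.10.

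Procollagen N-proteinases trim the ends of fibrillar procollagens. Adamts3, which also cuts reelin and activates Vegfc, read 9.95, 9.92 and 9.69 in wild type and 9.66, 10.06 and 9.91 in knockout in the row that stood for it, a difference of 0.02 (-0.25 to 0.30). Adamts14 read 6.89, 6.88 and 7.18 in wild type and 6.94, 6.98 and 6.97 in knockout, a difference of -0.02. Neither separated the groups, and both changed sign without wild-type replicate 3, to -0.06 and 0.08. Adamts3 also did so without knockout replicate 2, to -0.07.

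Adamts3, Adamts9 and Adamts17 had 16, 6 and 5 rows in the table, each with its own probes, which shows how far rows of 1 gene follow each other. For Adamts3, 8 rows were higher and 8 lower in knockout, with differences from -0.21 to 0.17, and 0 of 16 separated the groups. The arrays, however, kept an order across rows. Wild-type replicate 1 was highest in 10 of the 16, and the lowest value fell in knockout replicate 1 for 9 and wild-type replicate 3 for 6. Averaged over rows, the arrays read 8.94, 8.72 and 8.48 in wild type and 8.51, 8.83 and 8.73 in knockout. Within each group the arrays thus spread by more than the mean difference of -0.0239 between groups. For Adamts9, 5 of 6 rows were higher (from -0.07 to 0.24), knockout replicate 1 being lowest in 4. For Adamts17, 3 of 5 were higher (from -0.11 to 0.08), and 1 row, with a difference of 0.08, separated the groups.

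**Figure D4:**
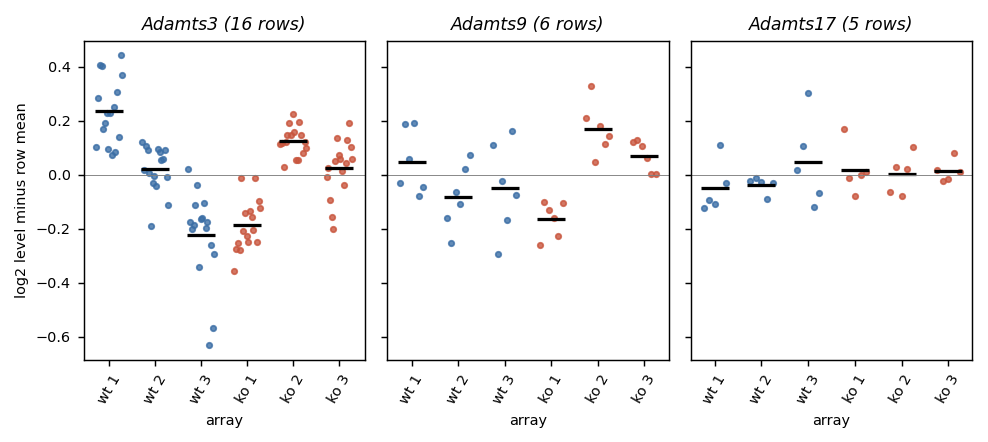
Log2 level minus the row's mean over 6 arrays (vertical axis) in each array (horizontal axis, wt for wild type and ko for knockout) for all rows of Adamts3, Adamts9 and Adamts17. Each point is 1 row and each black bar the mean over rows, which for Adamts3 is highest in wild-type replicate 1 and lowest in wild-type replicate 3.

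Among the other ADAMTS proteases 3 of 9 stood higher, 6 if wild-type replicate 3 was omitted and 5 if it was knockout replicate 1 or 3. Adamts16 was the one ADAMTS gene whose groups did not overlap. It read 8.36, 8.20 and 8.20 in wild type and 8.44, 8.48 and 8.43 in knockout, a difference of 0.20 (0.02 to 0.37), which puts knockout at 115% of the wild-type signal, with an unadjusted p of 0.0326 and an adjusted p of 1 in limma. The difference ran from 0.17 to 0.25 with single arrays left out. Its close relative Adamts18 read 7.65, 7.51 and 7.83 in wild type and 7.51, 7.63 and 7.62 in knockout, a difference of -0.08 in the other direction, with overlapping groups. Whether the 2 relatives differ in response was not tested.

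Adamts7 and Adamts12 both cut the cartilage matrix protein Comp. Adamts7 read 8.85, 9.03 and 9.03 in wild type and 8.80, 8.82 and 8.96 in knockout, a difference of -0.11 (-0.30 to 0.08) that stayed negative with each array left out, with knockout replicate 3 inside the wild-type range. Adamts12 read 7.93, 7.80 and 7.97 in wild type and 7.74, 8.06 and 7.97 in knockout, a difference of 0.03. The lowest and the highest value of Adamts12 are both knockout. Adamts13, which cuts von Willebrand factor, read 6.34, 6.35 and 6.85 in wild type and 6.37, 6.36 and 6.54 in knockout, with wild-type replicate 3 alone at the top, a difference of -0.09 that was 0.08 without that array. Its substrate gene Vwf, an endothelial product, read 7.14, 7.14 and 7.51 in wild type and 7.43, 7.58 and 7.56 in knockout. Wild-type replicate 3 alone lay among the knockout values, and the difference was 0.26 (-0.01 to 0.52).

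The relatives Adamts6 and Adamts10 are linked to fibrillin microfibrils. Adamts10 read 8.86, 8.90 and 8.81 in wild type and 8.78, 8.87 and 8.85 in knockout, a difference of -0.02, and its 6 values lie within 0.12 log2 units. Adamts6 read 7.03, 6.96 and 6.73 in wild type and 6.89, 6.96 and 6.69 in knockout, a difference of -0.06. Here replicate 3 was lowest in both groups. Adamts17 read 9.75, 9.83 and 9.95 in wild type and 9.83, 9.87 and 9.82 in knockout, a difference of -0.00473. Its relative Adamts19 read 6.90, 6.82 and 7.05 in wild type and 7.16, 6.97 and 6.91 in knockout, a difference of 0.09, with knockout replicate 1 highest. The groups overlapped for each of these 4 genes.

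**Figure D5:**
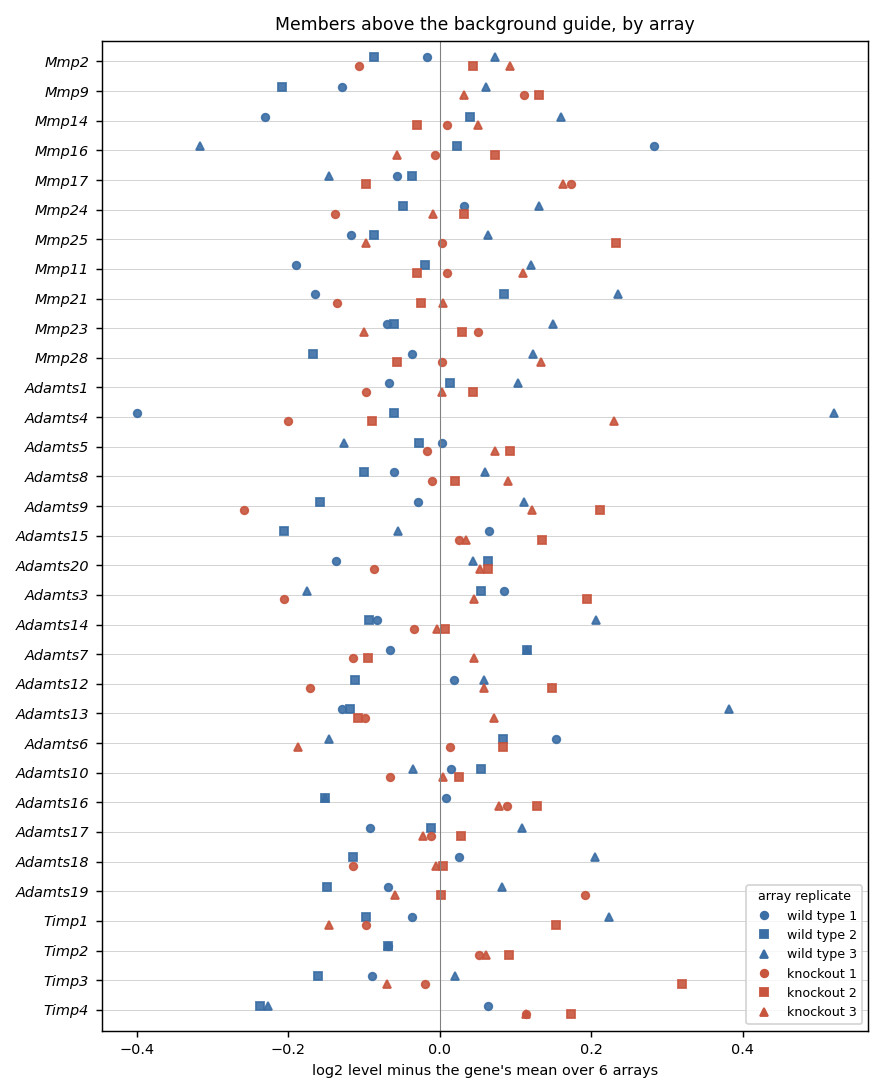
Log2 level minus the gene's mean over 6 arrays (horizontal axis) for the 33 members above the background guide, with wild-type arrays in blue and knockout arrays in red, 1 symbol per replicate number. Timp2, Timp4 and Adamts16 show red points wholly to the right of blue ones, and Adamts4 spans the widest range, from wild-type replicate 1 to wild-type replicate 3.

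Across the 33 members the extreme values gathered in particular arrays. Wild-type replicate 3 was highest for 13 members and knockout replicate 2 for 12, or 39.4% and 36.4%, whereas over all genes above the guide these arrays were highest for 22.8% and 9.98%. Knockout replicate 2 was lowest for 0 of 33 members, against 11.7% of all genes above the guide. Wild-type replicate 1 was highest for 2 members (6.06%) against 23.6% of all genes. Leaving knockout replicate 2 out brought the members that stood higher from 20 to 14 of 33, and leaving out wild-type replicate 3 brought them to 26. Genotype and sex coincide once knockout replicate 2 is left out. Of the 18 ADAMTS genes 9 stood higher, 5 when knockout replicate 2 was omitted and 14 when wild-type replicate 3 was. These shares are descriptions, and members that share a cell source are not independent.

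The median size of a member's difference was 0.06 against a median within-group SD of 0.12, and 8 of the 33 differed by more than their own within-group SD (24.2%, against 19.8% of all genes above the guide). Following the component that sets wild-type replicates 1 and 3 apart, 10 of 33 members had a correlation beyond 0.8 in size with its scores over the 6 arrays (30.3%, against 28.2%). The closest were Adamts4 at 0.98, Mmp16 at -0.92 and Mmp11 at 0.91, and Timp2 was at 0.08. The genes themselves enter that component, so these values only describe the arrays.

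Partners of the proteases did not pass the test either. Of 15 activators and membrane partners, 10 stood higher and 5 lower, their median difference was 0.01 (5 stood higher without knockout replicate 3), and 0 had an unadjusted p under 0.05. The smallest p values were those of Cav1, the caveolar coat protein, at 0.28 (-0.07 to 0.63), which was 0.10 without wild-type replicate 1, and the convertase Pcsk6 at 0.10. Furin, which activates membrane-type MMPs and Mmp11, and the MMP inducer Bsg each differed by 0.03. Of 9 measured inhibitors of other families 3 stood higher, with a median of -0.04 and a count of 1 (without wild-type replicate 2) to 5 (without knockout replicate 3 or wild-type replicate 1) when arrays were omitted. Pzp, a plasma inhibitor under the guide, differed by -0.17, the matrix proteoglycan Spock2 by 0.10, and Reck, a membrane-anchored MMP inhibitor, by -0.09 (-0.34 to 0.16).

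Of 7 ADAMTS-like genes, which resemble ADAMTS proteases without the catalytic domain, 3 stood higher (5 without knockout replicate 1 or wild-type replicate 3) and 1 had an unadjusted p under 0.05. That was Adamtsl3, which read 5.77, 5.64 and 5.75 in wild type and 6.00, 6.00 and 6.01 in knockout, a separated difference of 0.29 (unadjusted p of 0.00368, adjusted p of 1 in limma), although its 6 values lie under the guide. Adamtsl1 differed by 0.08. Of 18 measured matrix substrates 8 stood higher with a median of -0.03, and after Vwf the smallest p was that of Fbn2, a fibrillin, at -0.21 (-0.46 to 0.04). Of 8 ADAM sheddases 5 stood higher with a median of 0.02, with the smallest p values for Adam8 at -0.13 and Adam9 at 0.08. Among the AP-1 and Ets regulators Ets1 differed by 0.10 and Jun by 0.12, each with an interval that includes 0. Over all genes tested, 9260 of 19938 stood higher (46.4%), and the median difference was -0.01.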

How the data were processed

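RNA from 6 samples (3 wild type, 3 TNC -/-) was hybridised to Affymetrix whole-transcript arrays per the labels' protocols. The authors deposited log2 values, made with RMA per the submitters' processing notes (no version or genome build given). RMA is meant to correct background and equalise arrays, and it compresses differences at low signal. The medians of the deposited arrays were still not equal. In replicate order they were 6.97, 7.00 and 7.10 in wild type and 6.96, 7.00 and 7.02 in knockout. The deposited table holds 35557 rows, of which 21789 have exactly 1 symbol in the platform annotation. Updating symbols through RefSeq (GRCm38.p6) gave 19938 genes, 19856 of them matched. Knockout and wild type were compared across all genes with limma 3.58.1 in R 4.3.3 (lmFit, eBayes, group as the only term, two-sided, Benjamini-Hochberg, threshold 0.05). The labels name no litter or scan batch, and p values measure the spread between these samples. The members and lists were chosen with earlier results of these data known. Every member above the background guide was named with its arrays, and 2 genes of smallest p per partner list. Further genes (Furin, Bsg and Reck) were named for their role after their values were seen. The fit was tested on simulated data. Whether it would find differences as small as those of the members was not tested. The number of arrays limits the precision. The count of each list with single arrays left out and with the sex term was added after seeing the data. Motifs were searched on both strands in RefSeq promoter windows.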

Additional observations from a re-analysis of the deposited data

How the results depend on the processing

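With 1 array left out, the difference changed sign for 20 of the 33 members above the guide, over these ranges: Mmp2 -0.02 to 0.08, Mmp14 -0.09 to 0.11, Mmp16 -0.15 to 0.14, Mmp25 -0.01 to 0.16, Mmp11 -0.02 to 0.14, Mmp23 -0.05 to 0.06, Mmp28 -0.02 to 0.13, Adamts1 -0.07 to 0.01, Adamts4 -0.25 to 0.21, Adamts9 -0.04 to 0.19, Adamts20 -0.04 to 0.07, Adamts3 -0.07 to 0.13, Adamts14 -0.08 to 0.08, Adamts12 -0.04 to 0.12, Adamts13 -0.18 to 0.08, Adamts6 -0.14 to 0.02, Adamts10 -0.04 to 0.01, Adamts17 -0.05 to 0.05, Adamts18 -0.15 to 0.01 and Timp1 -0.15 to 0.04. The other 13 kept their sign in each of these fits. With the sex term, which rests on knockout replicate 2, 9 changed sign: Mmp14 to -0.02, Mmp17 to -0.02, Mmp23 to 0.02, Mmp28 to -0.03, Adamts1 to 0.03, Adamts6 to 0.05, Adamts10 to 0.02, Adamts17 to 0.03 and Timp1 to 0.13. Another 16 kept their sign but moved by over 1.5 times, 11 of them to a larger size, such as Mmp25 (0.28), Adamts9 (0.23), Adamts3 (0.21), Adamts12 (0.16) and Timp3 (0.39). Averaging all rows of a gene turned Adamts3 to -0.02 and Adamts17 to 0.02, and median centring turned Mmp16 to -0.000892. The cause was not tested. Members past an adjusted p of 0.05 numbered 0 in every setting run, also at 0.1. Over all genes the count was 0 in every setting but 1, without knockout replicate 2, where 4 genes passed, so the range over single arrays left out was 0 to 4. Without that array both remaining knockout arrays carry Y-chromosome signal and no wild-type array does. Genotype and sex therefore coincide in that fit and cannot be told apart. Members with an unadjusted p under 0.05 ranged from 0 to 4 with 1 array left out and numbered 1 with the sex term. Same-numbered arrays deviated from their group means with correlations of 0.364, -0.111 and 0.464. Scores on the principal component described above rose with replicate number in both groups. The main fit did not pair samples by replicate number, and whether same-numbered arrays share a batch was not tested. With the replicate block the members' count was 2, and that of all genes was 636 in place of 339. The block, a filter at the guide, an intensity trend with robust fitting and renewed quantile normalization reversed no member. No other background correction was possible from values already summarised by RMA. Timp1 and Mmp21 lie closest to background among the members above the guide.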
